A study of Rattus norvegicus with 6 samples.

Results

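The genes of haem metabolism, iron handling and red cell development are described here in rat liver. They were 33 genes chosen by name in 4 classes: 8 of haem synthesis, 4 of haem breakdown, 11 of iron transport and storage, and 10 of red cells and their precursors. Their 63 probes, of 61657 on the array that were not controls, were found through the RefSeq accession that each probe carries, and the array named 15284 genes in this way.

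Liver RNA was taken from 6 male Sprague-Dawley rats of the stock Crl:CD(SD), bought at 5 weeks of age, and each rat was measured on its own 1-colour Agilent array. The ADBAQ group held 3 rats that had received 1-amino-2,4-dibromoanthraquinone, an anthraquinone dye intermediate, at 1000 mg/kg/day. The vehicle group held 3 rats that had received no ADBAQ. The labels name the vehicle once as purified water and once as corn oil, and give the treatment as 28 days in some fields and as 9 weeks in another. The 3 ADBAQ arrays lay on 1 slide read on 1 day and the 3 vehicle arrays on a different slide read on a different day, so slide, scan day and treatment cannot be told apart in any comparison.

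Between 64.3% and 65.3% of probes were well above background on the ADBAQ arrays, and between 62.1% and 62.8% on the vehicle arrays. No such probe was saturated. All levels below are log2 processed signals relative to the 75th percentile of the same array, so that 0 is the 75th percentile, and levels of different probes are not comparable with each other. Differences are log2 fold changes, ADBAQ minus vehicle, with limma's moderated SE. A gene is called when the Benjamini-Hochberg adjusted p of its brightest probe is under 0.05. The hepatocyte markers Alb, Apob, Ttr and Cps1 were well above background on all 6 arrays.

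Haem is an iron-holding ring that is built in a chain of enzyme steps beginning and ending in mitochondria. The liver makes it mainly for its cytochromes, and red cell precursors make it for haemoglobin. Haem oxygenase opens the ring and frees the iron, which is kept in ferritin or leaves the cell through ferroportin. Hepcidin, a hormone made by hepatocytes, binds ferroportin and leads to its removal. In rodents the liver is a site of red cell formation before birth, and the bone marrow and spleen make red cells in adults.

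Of the 33 genes, 32 were tested, which needed a probe that passed the scanner's background flag on all 3 arrays of either group. In the ADBAQ rats 9 were called higher and 2 lower, which is 34.4% of those tested, against 20.3% of all 11344 genes tested on the array. Of all genes, 9.05% were called higher and 11.3% lower. Ahsp, Hmox1, Slc4a1, Alas2, Ireb2, Slc40a1, Hbb, Hbb-b1 and Klf1 were higher, and Alad and Tfr2 were lower. The median log2 fold change was 0.19 over the 32 genes and -0.04 over all genes tested. Groups did not overlap for 13 of the genes with ADBAQ higher and for 8 with ADBAQ lower, and 46.3% of all genes tested had groups that did not overlap. Over probes, 20 were called higher and 2 lower of the 59 tested, against 18.4% of all probes called either way. The called probes of Klf1 and Hemgn were kept only through the ADBAQ arrays, where they were higher. Klf1 is also among the 9 genes called higher.

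Calls were also counted in each class. Of the red cell genes 5 of 9 tested were called, which is 55.6%, all of them higher. Klf1, among them, cleared background on 3 ADBAQ and 2 vehicle arrays, so it was tested only through the ADBAQ arrays. Hbb and Hbb-b1, also among them, may not be separate measurements. The share was 25% in haem synthesis, 25% in haem breakdown and 27.3% in iron transport and storage, close to the 20.3% of all genes, so for these classes the counts say nothing about the class as a whole. Median log2 fold changes were 0.87 for red cell genes, -0.17 for haem synthesis, 0.30 for haem breakdown and 0.03 for iron transport and storage. The calls depended on single arrays: 11 genes were called with all arrays, 6 without ADBAQ replicate 1, 6 without ADBAQ replicate 3 and 7 without vehicle replicate 2. The share of all genes called also fell when an array was left out, to between 7.88% and 13.6%.

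**Figure D1:**
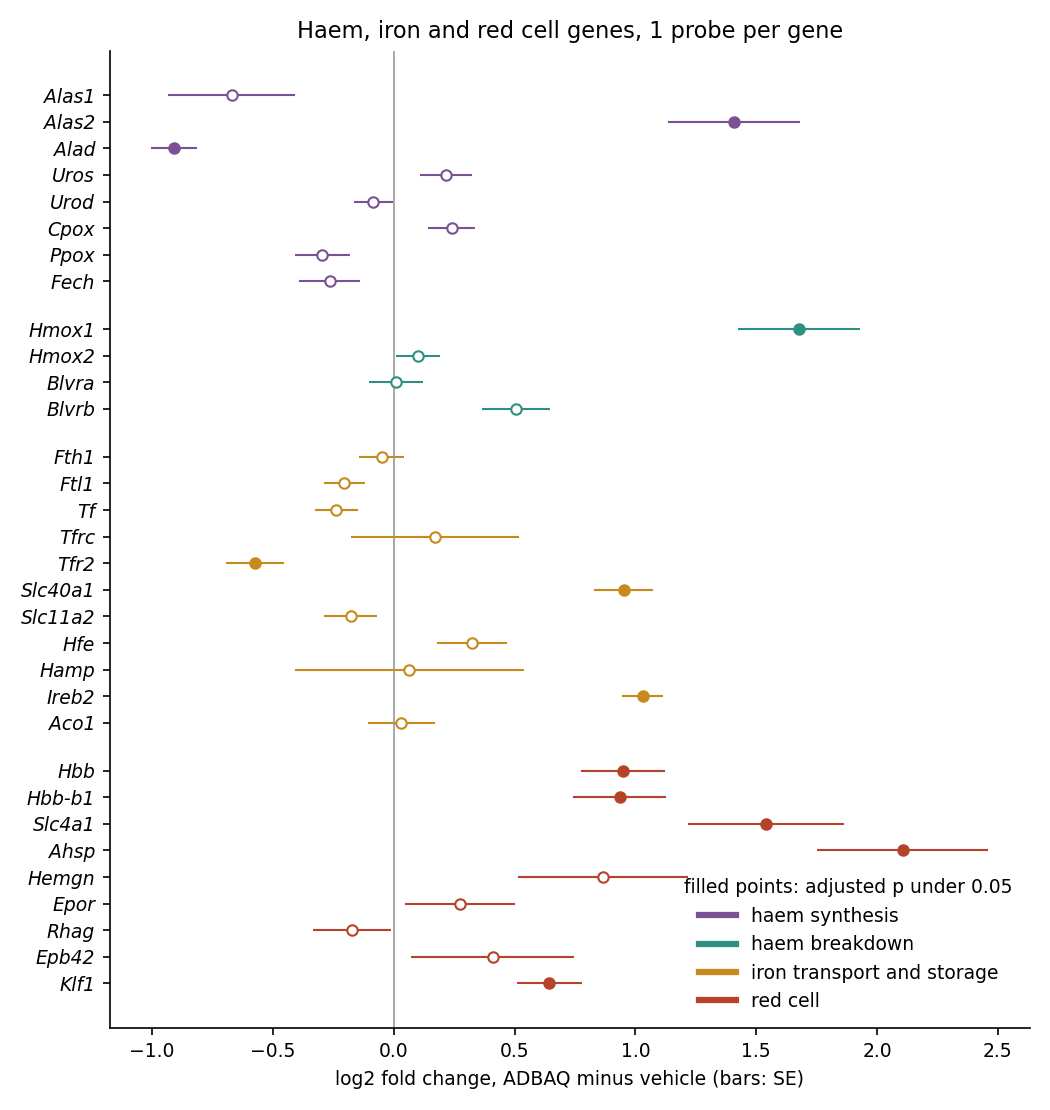
Log2 fold change, ADBAQ minus vehicle, of the 32 tested genes, each by its brightest probe, with bars of 1 SE and n = 3 rats in each group. Filled points mark genes with an adjusted p under 0.05: 9 lie right of 0 and 2, Alad and Tfr2, left of it. With scaling to the spike-in controls Tfr2 was at 0.18, and with normexp background correction Klf1 was at -0.07.

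Red cell genes gave the largest count. The sequences just upstream of 4 genes called higher are shown because these genes act together in red cell precursors: Hbb and Hbb-b1 encode beta globins, Klf1 encodes a factor that binds CACCC motifs of globin genes, and Alas2 encodes the first enzyme of haem synthesis in these cells. Each holds the 250 bases before the gene's start, 5′ to 3′ in the direction of the gene, from RefSeq on GRCr8. Hbb lies on the minus strand (chr1:167663722-167663971), as do Hbb-b1 (chr1:167643521-167643770) and Klf1 (chr19:40158652-40158901), while Alas2 lies on the plus strand (chrX:22895200-22895449). Capitals mark matches, on either strand, to the GATA core (AGATAA or TGATAA), the CACCC core (CCACACCC) or an E-box (CACGTG).
Hbb: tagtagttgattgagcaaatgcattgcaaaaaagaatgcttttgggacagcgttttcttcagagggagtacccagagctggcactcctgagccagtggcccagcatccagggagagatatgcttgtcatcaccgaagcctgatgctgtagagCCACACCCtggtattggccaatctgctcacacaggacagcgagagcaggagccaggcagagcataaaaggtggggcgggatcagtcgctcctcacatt
Hbb-b1: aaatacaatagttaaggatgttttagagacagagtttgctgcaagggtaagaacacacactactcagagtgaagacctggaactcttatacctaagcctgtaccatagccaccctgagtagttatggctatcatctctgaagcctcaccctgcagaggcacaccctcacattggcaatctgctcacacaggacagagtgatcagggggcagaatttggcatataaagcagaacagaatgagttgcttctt
Klf1: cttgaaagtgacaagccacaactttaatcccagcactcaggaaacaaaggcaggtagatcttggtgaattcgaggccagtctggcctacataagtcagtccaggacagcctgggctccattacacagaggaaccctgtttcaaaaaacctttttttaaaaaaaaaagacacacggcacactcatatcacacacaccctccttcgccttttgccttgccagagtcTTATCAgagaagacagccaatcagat
Alas2: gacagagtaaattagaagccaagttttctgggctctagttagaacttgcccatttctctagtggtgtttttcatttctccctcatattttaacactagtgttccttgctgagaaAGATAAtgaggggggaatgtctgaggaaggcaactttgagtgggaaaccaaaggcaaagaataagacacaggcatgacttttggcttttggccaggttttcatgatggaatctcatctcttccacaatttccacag

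The CACCC core in the Hbb sequence begins 98 bases before the start, and 2.84% of 33469 rat promoter windows of the same length hold 1. Tfr2 was the other gene of the set with this core. The GATA core stood 26 bases before the start in Klf1 and 136 bases before it in Alas2. It was found in 4 of the 8 red cell genes with a sequence (Hemgn, Epor, Rhag and Klf1) and in 16.9% of all windows. A gene with several windows, such as Hemgn, counted when any of them matched, so these shares are in unlike units. The window of Hbb-b1 holds none of the 3 marked motifs, which says only that these letters are not in it. Of the 33 genes, 26 had a sequence; Cpox, Hmox1, Fth1, Ftl1, Hfe, Slc4a1 and Ahsp were not searched.

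Both beta globin genes were called higher, but neither was called without ADBAQ replicate 1 or without ADBAQ replicate 3. Without vehicle replicate 2 Hbb-b1 was not called either. Hbb stood at 9.08, 8.67 and 8.97 in the 3 ADBAQ rats, against 7.66, 8.08 and 8.14 in the 3 vehicle rats. All ADBAQ rats were above all vehicle rats, with a log2 fold change of 0.95 ± 0.17 (limma, adjusted p = 0.0176), or 1.93-fold. Hbb-b1 stood at 8.98, 8.47 and 8.78 in ADBAQ rats, against 7.47, 7.95 and 7.99 in vehicle rats, and rose by 0.94 ± 0.19 (limma, adjusted p = 0.0244). The other probe of Hbb rose by 1.24 ± 0.25 (limma, adjusted p = 0.0234), and the other probes of Hbb-b1 by 0.93 and 1.03. Globin genes have near-identical copies, and whether a probe reads 1 of them alone was not tested, so these 5 probes may not be separate measurements.

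Ahsp, which encodes the chaperone that holds free alpha globin, had the largest change of the set. Its levels were 2.32, 1.05 and 2.18 in ADBAQ rats, against -0.56, -0.01 and -0.20 in vehicle rats. The groups did not overlap, and Ahsp rose by 2.11 ± 0.35 (limma, adjusted p = 0.0144), or 4.3-fold. Its other probe rose by 2.04 ± 0.32. Ahsp was the red cell gene that remained called with each array left out.

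Slc4a1, the band 3 anion exchanger of the red cell membrane, had levels of 0.91, -0.11 and 0.48 in ADBAQ rats, against -0.99, -1.61 and -0.73 in vehicle rats. It rose by 1.54 ± 0.32 (limma, adjusted p = 0.0256), with no overlap between groups. Slc4a1 was no longer called without ADBAQ replicate 1, ADBAQ replicate 3, vehicle replicate 1 or vehicle replicate 2. A further Slc4a1 probe did not clear background on an array of either group and was not tested. Klf1, which cleared background on 3 ADBAQ and 2 vehicle arrays, was at -4.09, -4.25 and -4.44 in ADBAQ rats, against -4.89, -4.75 and -5.07 in vehicle rats. Both Klf1 probes were kept only through the ADBAQ arrays, so their p-values are left out. Klf1 rose by 0.64 ± 0.13 and was called, but with normexp background correction the value was -0.07 and was not called. The call was also lost with trend and robust variances and without ADBAQ replicate 1, ADBAQ replicate 2, vehicle replicate 1 or vehicle replicate 3. Its other probe differed by 1.13 ± 0.33 and was not called.

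The other tested red cell genes were not called on their brightest probe. Hemgn, a nuclear protein of blood precursors, stood at -2.98, -3.84 and -3.67 in ADBAQ rats, against -5.05, -3.96 and -4.09 in vehicle rats, and its difference of 0.87 ± 0.35 was not called (limma, adjusted p = 0.133). Its other probe cleared background on 3 ADBAQ arrays and on 0 vehicle arrays. There it was at least 2.7-fold higher in ADBAQ rats, a bound taken against the lowest signal that counts as well above background. This probe was kept only through the ADBAQ arrays, so its p-value is left out. The erythropoietin receptor gene Epor differed by 0.27 ± 0.23 and Epb42, a protein of the membrane skeleton, by 0.41 ± 0.34, and neither was called.

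Rhag, which encodes a membrane protein of the Rh complex, differed by -0.17 ± 0.16 on its tested probe and was not called. Its other probe was well above background on 2 ADBAQ arrays and on no vehicle array, with levels of -4.72, -5.49 and -4.06 in ADBAQ rats, against -7.09, -6.99 and -7.08 in vehicle rats, and was not tested. Gata1, the factor that leads red cell development, was the gene of the set with no tested probe. It was well above background on 1 ADBAQ array and on no vehicle array, at -6.36, -5.56 and -4.97 in ADBAQ rats, against -7.46, -7.41 and -7.19 in vehicle rats.

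**Figure D2:**
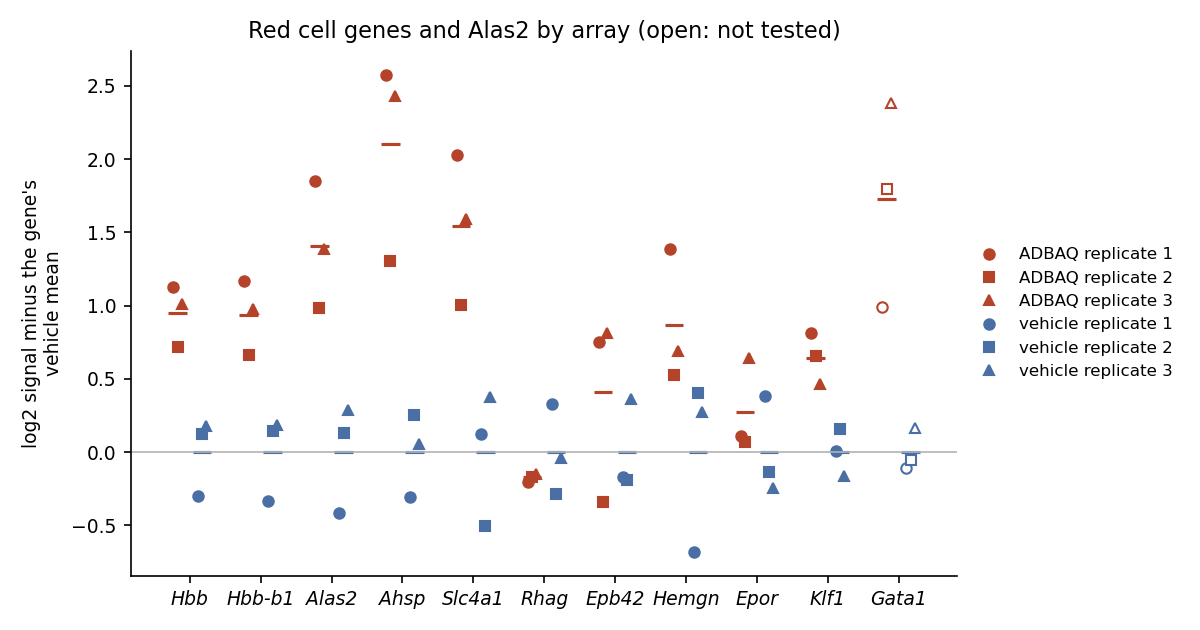
Log2 signal of each rat minus the vehicle mean of the same gene, for the 10 red cell genes and Alas2, with ADBAQ left of vehicle for each gene and dashes at group means. ADBAQ replicate 2 is the lowest ADBAQ rat for Hbb, Hbb-b1, Alas2, Ahsp and Slc4a1, yet lies above every vehicle rat for each of these; Klf1, shown above 0, was at -0.07 with normexp background correction.

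The ADBAQ rats stood in a similar order in most of these genes. Replicate 2 was the lowest ADBAQ rat in 7 of the 9 tested red cell genes (77.8%), against 32.1% of all tested genes. Replicate 1 was the highest in 6 of the 9 (66.7%), against 32.3% of all tested genes. Alas2, counted with haem synthesis, had the same order. In 19 other red cell genes replicate 2 was the lowest ADBAQ rat in 9 (47.4%) and the highest in 6 (31.6%). The 9 genes include both beta globins, whose probes may read the same message. How many red cell genes were called depended on which array was left out: 5 were called with all arrays, 1 without ADBAQ replicate 1, 2 without ADBAQ replicate 3, and 3 without vehicle replicate 1 or without vehicle replicate 2. Each of the 5 called genes kept its direction with each array left out.

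Of a list of 37 other red cell genes, 25 were on the array and 19 were tested, of which 8 were called higher and 0 lower (42.1%, against 20.3% of all genes called either way), with a median log2 fold change of 0.42. Rhd, a blood group protein, rose by 1.75 ± 0.36 (limma, adjusted p = 0.0252). Car2, a carbonic anhydrase also found outside red cells, rose by 1.48 ± 0.16 (limma, adjusted p = 0.00502). The globin genes Hbb-bs and Hbe2 rose by 1.30 ± 0.25 and 1.25 ± 0.24. Hbe1, Sptb, Gfi1b and Epo did not clear background on any array. The other 4 called genes, Hba-a1, Hba-a3, Bpgm and Lmo2, were named after their values were seen. Hba-a1 and Hba-a3 are globin genes too. Whether a globin probe reads 1 copy alone was not tested, so the 8 calls may not be separate measurements.

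Markers of other cells were measured beside the red cell genes. Of all genes tested, 20.3% were called either way. The summed linear signal of 10 tested erythroid markers, 9 of which are in the set itself, ranged from 769 to 1061 times the array's 75th percentile in ADBAQ rats, against 383 to 540 in vehicle rats. Nearly all of this summed signal came from the probes of Hbb and Hbb-b1, which may not be separate measurements. Such sums are weighted by how bright each probe is, so they give no share of message between genes. The other 8 markers summed to 6.94 to 14.0 in ADBAQ rats, against 2.78 to 4.03 in vehicle rats. Of 5 markers of megakaryocytes and platelets none was called (summed signal 1.57 to 2.60 in ADBAQ rats, against 1.52 to 2.06 in vehicle rats). Of 9 leukocyte markers none was called either (4.40 to 5.90 in ADBAQ rats, against 3.65 to 5.21 in vehicle rats). Of 9 markers of Kupffer cells and macrophages, the cells that clear old red cells in liver, 1 was called, Lyz2, at 0.88 higher (96.5 to 119 in ADBAQ rats, against 80.1 to 93.8 in vehicle rats).

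Of 10 hepatocyte markers 7 were called lower and none higher (5074 to 5440 in ADBAQ rats, against 6602 to 7147 in vehicle rats). Tf, 1 of these markers, is in the set itself. Their median log2 fold change was -0.47. Scaling to the spike-in controls moved the median of all genes from -0.04 to 0.72. The direction of the smaller falls therefore depends on the normalization. Over all genes tested, 11.3% were called lower and 9.05% higher. Of 5 cholangiocyte markers 3 were called higher and 1 lower (2.51 to 3.56 in ADBAQ rats, against 1.53 to 1.85 in vehicle rats). None of 5 endothelial markers (37.7 to 46.4 in ADBAQ rats, against 45.0 to 50.2 in vehicle rats) and none of 7 stellate cell markers (22.6 to 25.0 in ADBAQ rats, against 24.7 to 34.6 in vehicle rats) was called. The part of these shifts in the red cell, haem and iron results was not tested. In RNA of whole liver, more cells of a type and more RNA per cell cannot be told apart.

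In haem synthesis the 2 called genes went opposite ways. Alas1 and Alas2 encode the forms of the first enzyme, in liver and most tissues for Alas1 and in red cell precursors for Alas2. Alas2 stood at 2.74, 1.88 and 2.27 in ADBAQ rats, against 0.47, 1.02 and 1.18 in vehicle rats. It rose by 1.41 ± 0.27 (limma, adjusted p = 0.0206), or 2.65-fold, and was no longer called without ADBAQ replicate 1, ADBAQ replicate 3 or vehicle replicate 2. Alas1 stood at 6.38, 6.56 and 6.57 in ADBAQ rats, against 7.03, 7.77 and 6.73 in vehicle rats. The groups did not overlap, but the difference of -0.67 ± 0.26 was not called (limma, adjusted p = 0.122). The vehicle rats were spread over a wider range than the ADBAQ rats.

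Alad encodes the second enzyme, which joins the products of the first and binds lead. Its levels were 7.51, 7.51 and 7.64 in ADBAQ rats, against 8.55, 8.49 and 8.36 in vehicle rats. Alad fell by 0.91 on the log2 scale (SE 0.09, limma, adjusted p = 0.00456), or 1.88-fold, and remained called with each array left out. With scaling to the spike-in controls, which raised the median of all genes to 0.72, its value was -0.15 and was not called.

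None of the later enzymes was called. Uros and Cpox differed by 0.22 ± 0.11 and 0.24 ± 0.10, and Urod, Ppox and Fech by -0.08 ± 0.08, -0.30 ± 0.11 and -0.27 ± 0.13. Their adjusted p lay between 0.115 for Ppox and 0.495 for Urod (limma). Fech, which puts iron into the ring, was at 1.27, 1.10 and 1.16 in ADBAQ rats, against 1.30, 1.67 and 1.36 in vehicle rats. Ppox, the enzyme before it, was at 1.07, 1.05 and 1.02 in ADBAQ rats, against 1.48, 1.14 and 1.41 in vehicle rats, and its other probe differed by -0.35 ± 0.10 (limma, adjusted p = 0.0652). ADBAQ rats were below vehicle rats on both Ppox probes, without a call.

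A list of 15 further genes around haem synthesis held 12 tested genes, of which 2 were called higher, with a median of -0.02. Of all genes tested, 9.05% were called higher, so this small count says nothing about the list. Abcb6, a porphyrin transporter, rose by 0.60 ± 0.08 (limma, adjusted p = 0.00816). Slc25a39, a mitochondrial carrier, rose by 0.42 ± 0.08 (limma, adjusted p = 0.0211).

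**Figure D3:**
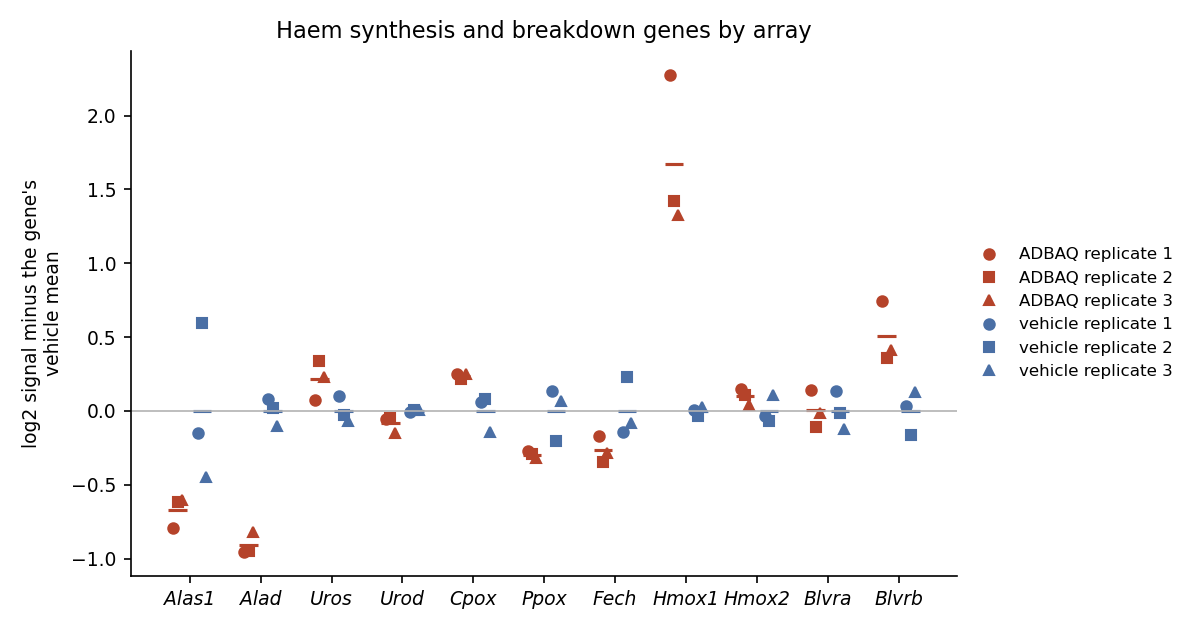
Log2 signal of each rat minus the vehicle mean of the same gene, for 7 haem synthesis genes without Alas2 and the 4 haem breakdown genes, with ADBAQ left of vehicle for each gene and dashes at group means. The 3 ADBAQ rats lie below every vehicle rat for Alad and above every vehicle rat for Hmox1, where replicate 1 stands highest.

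In haem breakdown Hmox1, the inducible haem oxygenase, was the called gene. Its levels were 3.66, 2.80 and 2.71 in ADBAQ rats, against 1.38, 1.34 and 1.40 in vehicle rats. The vehicle rats were nearly equal and every ADBAQ rat was above them. Hmox1 rose by 1.68 ± 0.25 (limma, adjusted p = 0.011), or 3.2-fold, and remained called with each array left out. Hmox2, the form made at a steady level in most cells, differed by 0.10 ± 0.09 on its brightest probe and by -0.21 ± 0.12 on the other, with neither called.

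Biliverdin, the product of haem oxygenase, is reduced by Blvra, and Blvrb encodes a further biliverdin reductase. Blvra differed by 0.01 ± 0.11. Blvrb, which is abundant in red cells and liver, stood at 6.37, 5.99 and 6.04 in ADBAQ rats, against 5.66, 5.46 and 5.75 in vehicle rats. Groups did not overlap, and the difference of 0.51 ± 0.14 was just short of the threshold (limma, adjusted p = 0.053). Of its other probes, 1 was called at 0.60 ± 0.14 (limma, adjusted p = 0.0372) and 1 was not, at 0.45 ± 0.13.

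Among 13 tested genes of haem transport, scavenging and the control of breakdown, 5 were called higher and 2 lower (53.8%, against 20.3% of all genes), with a median of 0.06. Slc48a1, which carries haem out of lysosomes, rose by 1.11 ± 0.10 (limma, adjusted p = 0.00301). Por, which passes electrons to haem oxygenase and to cytochromes, rose by 1.14 ± 0.19 (limma, adjusted p = 0.015). Nfe2l2, a factor known to act on the Hmox1 gene, rose by 0.90 ± 0.12 (limma, adjusted p = 0.00866). Lrp1, a receptor that takes up haem bound to haemopexin, fell by 1.13 (SE 0.10, limma, adjusted p = 0.0034). Flvcr2 and Pgrmc1 were also called higher and Ambp lower, named after their values were seen. Ambp was at -0.45, and its direction depends on the normalization. Spike-in scaling moved the median of all genes from -0.04 to 0.72.

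In iron transport and storage, 2 genes were called higher and 1 lower. Slc40a1 encodes ferroportin, the exporter of iron from cells. Its levels were 4.17, 4.30 and 4.28 in ADBAQ rats, against 3.48, 3.34 and 3.09 in vehicle rats. The groups did not overlap, and Slc40a1 rose by 0.95 ± 0.12 (limma, adjusted p = 0.00803), or 1.93-fold. Its other probes rose by 0.69 ± 0.13 and 0.77 ± 0.13, and the gene remained called with each array left out.

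Ireb2 encodes an iron-regulatory protein, which binds RNA hairpins in messages such as those of ferritin and the transferrin receptor. It stood at 0.21, 0.07 and 0.18 in ADBAQ rats, against -0.88, -0.86 and -0.89 in vehicle rats. With little spread in either group, Ireb2 rose by 1.03 ± 0.08 (limma, adjusted p = 0.00274), or 2.04-fold, and remained called with each array left out. Aco1, the other iron-regulatory protein and an aconitase of the cytosol, differed by 0.03 ± 0.14 and was not called.

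Tfr2, a transferrin receptor of hepatocytes that takes part in hepcidin control, stood at 2.80, 2.70 and 2.44 in ADBAQ rats, against 3.30, 3.17 and 3.19 in vehicle rats. Tfr2 fell by 0.57 on the log2 scale (SE 0.12, limma, adjusted p = 0.0252), but with scaling to the spike-in controls its value was 0.18 and it was not called. That scaling moved the median of all genes to 0.72. Leaving out any array but ADBAQ replicate 1 also ended the call.

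Hamp, which encodes hepcidin, varied widely between rats of the same group. It stood at 7.09, 6.10 and 7.26 in ADBAQ rats, against 7.52, 6.82 and 5.91 in vehicle rats. The groups overlapped, and the difference of 0.06 ± 0.47 was not called (limma, adjusted p = 0.936). Tfrc, the general transferrin receptor, stood at 1.93, 3.20 and 3.06 in ADBAQ rats, against 2.48, 2.38 and 2.82 in vehicle rats, a difference of 0.17 ± 0.35. ADBAQ replicate 1 was the lowest of all rats on the 3 Tfrc probes, and the brightest probe differed by 0.57 without it.

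The ferritin and transferrin genes were among those not called. Fth1, the heavy ferritin chain, differed by between -0.14 and -0.05 over its 4 probes. Ftl1, the light chain, gave probes that disagreed. The brightest stood at 9.93, 10.05 and 9.99 in ADBAQ rats, against 10.17, 10.25 and 10.17 in vehicle rats, a difference of -0.21 ± 0.09 that was not called (limma, adjusted p = 0.138). Of the other 4 probes 3 were called higher, at 0.62, 0.49 and 0.56, and 1 was not, at 0.22. Ferritin has processed copies in rodent genomes, and which of them each probe reads was not tested, so no direction is given for Ftl1.

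Tf, the carrier of iron in plasma, differed by -0.24 ± 0.09 and -0.30 ± 0.08 on its probes, with no overlap between groups and no call (limma, adjusted p = 0.113 for the brighter and 0.0532 for the other). Slc11a2, an importer of iron, differed by between -0.18 and -0.05 over 3 probes. Hfe, a partner of the transferrin receptors in iron sensing, differed by 0.33 ± 0.14 and 0.12 ± 0.13. Neither gene was called.

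**Figure D4:**
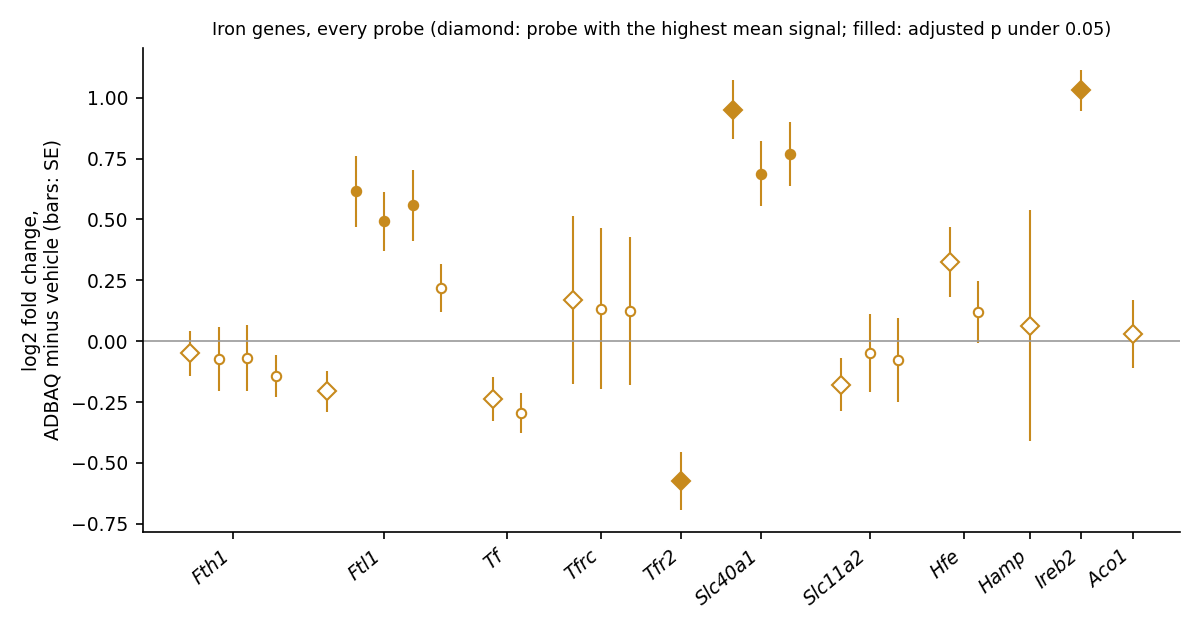
Log2 fold change, ADBAQ minus vehicle, of all 26 probes of the 11 iron genes, with bars of 1 SE, diamonds for the brightest probe of a gene and filled points for an adjusted p under 0.05. The 3 Slc40a1 probes all lie above 0 and are called, while the brightest Ftl1 probe lies at -0.21 and 3 others are called higher; Tfr2 was at 0.18 with scaling to the spike-in controls.

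Of 24 tested genes of iron uptake, export and hepcidin control, 1 was called higher and 4 lower, with a median of -0.19. This share of 20.8% is that of all genes, 20.3%, so the count says nothing about the list. Lcn2, which binds iron carried by bacterial siderophores and is a known acute-phase gene, stood at -0.71, 0.39 and -0.01 in ADBAQ rats, against -2.34, -2.52 and -2.33 in vehicle rats. It rose by 2.29 ± 0.27 (limma, adjusted p = 0.00646). Slc39a8, a metal importer, fell by 0.83 (SE 0.21, limma, adjusted p = 0.0433), and Steap3, an iron reductase of endosomes, by 0.81 (SE 0.20, limma, adjusted p = 0.041). Ftmt, the mitochondrial ferritin, fell by 0.54 (SE 0.13, limma, adjusted p = 0.0392). Its signal was low, with means of -4.10 in ADBAQ rats and -3.56 in vehicle rats. Its other probe cleared background on no array and was not tested. Tmprss6, a protease that lowers hepcidin, fell by 0.46 (SE 0.08, limma, adjusted p = 0.0171) and was named after its value was seen. Scaling to the spike-in controls moved the median of all genes from -0.04 to 0.72. The falls of Ftmt and Tmprss6 were smaller than this move, so their direction depends on the normalization.

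In iron-sulphur cluster assembly 1 of 11 tested genes was called higher, Bola3 by 0.67 ± 0.08 (limma, adjusted p = 0.00659), and 1 lower, Fdxr by 0.54 (SE 0.08, limma, adjusted p = 0.011). That share of 18.2% is no larger than the 20.3% of all genes. Among 9 tested haem proteins other than the drug-metabolising cytochromes, 2 were called higher and 2 lower (44.4%). Cygb, a globin of stellate cells, rose by 0.55 ± 0.15, and the electron carrier Cyb5a rose by 0.39 ± 0.08. Tdo2, which breaks down tryptophan, fell by 0.58 (SE 0.15), and the sulphite oxidase Suox fell by 0.50 (SE 0.09). Spike-in scaling moved the median of all genes from -0.04 to 0.72. The falls of Fdxr, Tdo2 and Suox were smaller than this move, so their direction depends on the normalization.

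Motifs known from haem and stress genes were also counted in the 250 bases before the start. The antioxidant response element (TGACNNNGC, either strand) was found in Hmox2, Blvra, Hemgn and Epor, 4 of the 26 genes searched, and in 10.1% of all windows; Hmox1 was not among those searched. The xenobiotic response element core (GCGTG, either strand) was found in 10 of 26, Alas1, Alad, Uros, Fech, Hmox2, Blvrb, Tfrc, Tfr2, Slc11a2 and Aco1, and in 25.9% of all windows. The E-box was found in Alad and Urod, and in 5.59% of all windows. Hmox2, Hemgn and Slc11a2 have several windows and counted when any of them matched, so gene counts and window shares are in unlike units. Of the genes with the xenobiotic core, Alad and Tfr2 were called lower and all the others were not called. None of the 8 red cell genes with a sequence held this core. A match is a description of the letters and not a site that a factor was seen to bind.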

How the data were processed

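Total RNA of liver from 6 rats was hybridised to 1-colour Agilent arrays, 1 per rat. The scanner software was Feature Extraction 10.7.1.1 per the file headers (10.7 per the labels), for an array design on rn4. The deposited scanner files hold intensity on a linear scale, the processed signal with background removed by that software, and median spot and background signals. Other columns used are flags per the file headers. The deposited series table is a ratio, the processed signal over the array's 75th percentile, not centred on genes; its column medians were 0.0929, 0.0971 and 0.0952 for ADBAQ and 0.0967, 0.097 and 0.0982 for vehicle. This was found by setting it against the scanner values. The authors' test and further steps are not given in the sources used here.

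Here, each processed signal was divided by the 75th percentile of its array and put on the log2 scale (percentiles 643, 570 and 596 for ADBAQ, 455, 461 and 433 for vehicle), without 1319 control spots and the outlier spots, 0 to 2 per array. Probes well above background on all 3 arrays of a group were kept, 38695 in all, and tested with limma 3.58.1 (lmFit and eBayes) in R 4.3.3, with Benjamini-Hochberg adjustment over them. A gene was represented by its kept probe with the highest mean. Symbols came through RefSeq accessions (27460 probes), with promoter sequences from RefSeq on GRCr8. The script was tested on simulated data. The number of arrays limits the precision, and p-values measure the spread between these rats.

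The set, the lists and the tests were chosen with earlier results of these data known. Named are all 33 genes and up to 4 called genes with the largest change of each pathway list; the results of 2 listed genes around haem synthesis are not reported here. The labels' replicate numbers were not treated as pairs in the main fit. Alternatives were quantile normalization, median centring, spike-in scaling, normexp with an offset of 50 (on median signals, since the mean spot signal was not used here), the series table, other filters, trend and robust, array weights, the replicate block, averaging the probes of a gene, and omission of single arrays.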

Additional observations from a re-analysis of the deposited data

How the results depend on the processing

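Of the 32 tested genes, Hmox1, Slc40a1 and Ireb2 were called under each of the 17 alternatives tried. Alad was called under all but scaling to the spike-in controls (-0.15), and Ahsp under all but the replicate block. With each array left out in turn, the number of genes called was 4 to 8 higher and 1 to 2 lower, with 1 to 2 in haem synthesis and 1 to 4 in red cell genes. Scaling to the spike-in controls put the median of all genes at 0.72, against -0.04 without it, so that 28 genes were called higher and 0 lower: 6 in haem synthesis, 4 in haem breakdown, 9 in iron and 9 in red cell genes. With it 80.5% of all genes were called. With that scaling these values changed sign: Alas1 0.0853, Urod 0.67, Ppox 0.46, Fech 0.49, Fth1 0.71, Ftl1 0.55, Tf 0.52, Tfr2 0.18, Slc11a2 0.58 and Rhag 0.58. All of them lie below that median of all genes. Normexp background correction called 6 genes lower and 4 in haem synthesis, with 35.6% of all genes called against 20.3%, and turned Hamp to -0.0349, Epb42 to -0.0523 and Klf1 to -0.0705. Quantile normalization turned Fth1 to 0.16, Ftl1 to 0.17 and Tf to 0.16. The mean of a gene's probes turned Hmox2 to -0.0535 and Ftl1 to 0.34, and array weights turned Aco1 to -0.0070. In haem breakdown 2 genes were called under quantile normalization, normexp, the filter on all 6 arrays, trend and robust, array weights and the mean of probes, since Blvrb passed there.

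With an array left out, Blvra ranged from -0.0583 to 0.0748, Hamp from -0.35 to 0.45, Aco1 from -0.0566 to 0.132 and Tfrc from -0.0651 to 0.57. With the replicate number as a block 5 genes were called higher and 1 lower, 1 in haem synthesis and 2 in red cell genes, while the share of all genes called fell to 8.66%. Same-numbered rats did not deviate together (correlations of -0.029, -0.020 and -0.005). With 3 rats in each group this cannot exclude a pairing, and none was used in the main fit. No fit with slide as a block was run, since each slide held 1 group. Signal over background limits Gata1, Klf1 and the dimmer probes of Slc4a1, Hemgn, Rhag, Epb42 and Ftmt. The cause of the other changes was not tested.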
